A study of Homo sapiens with 2 samples.

Results

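ENC 2 is a subcluster of enteric neural crest cells in cultures of H9, a human embryonic stem cell line, at day 10 of enteric neural crest induction. Its members are the 1129 cells that the deposited metadata place in the enteric neural crest type and in the subtype ENC 2, out of 4665 cells divided among the 4 subclusters, 4921 cells of the type and 7295 cells that passed the authors' filters. ENC 1 held 3001 cells, ENC 3 held 348 and ENC 4 held 187, and 256 further cells of the type carried no subcluster. The day 10 library came from adherent cultures on Geltrex and a second library came from free-floating crestospheres at day 15, which had been kept from day 12 in medium with FGF2 (10 ng per ml) and the WNT agonist CHIR 99021 (3 µM). Up to day 10 the cultures had received BMP4, the TGF-β receptor inhibitor SB431542 and CHIR 99021, the first in the opening medium only, with retinoic acid added in the later feeds. The labels name no special treatment and no genetic change of the line for either. The 3′ ends of transcripts were counted as unique molecular identifiers (UMIs) in single cells. Each stage was 1 library that pooled 2 biological repeats, the repeats were not separated here, and whether ENC 2 came from both was not tested.

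Neural crest cells leave the dorsal neural tube, migrate widely and give rise to peripheral neurons, glia, pigment cells and part of the skeleton of the head. Crest cells of the vagal level enter the gut and form the enteric nervous system. SOX10, a transcription factor kept on during migration and in glia, marks them together with FOXD3, TFAP2A, TFAP2B and the receptors ERBB3 and NGFR. Subclusters of such cells can differ by fate, by position in the cell cycle or by other shared variation in their transcripts.

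The library labelled D10 held 9627 cells and 70488169 UMIs, with a median of 6713 UMIs per cell. The library labelled D15 held 6320 cells with a median of 11770.5 UMIs. The libraries shared 102 cell barcodes, of which 8 belonged to ENC 2 cells. Levels are summed UMI counts of a class of cells as counts per 1000000 UMIs of that class (CPM). Intervals are exact 95% Poisson intervals for summed counts and exact 95% Clopper-Pearson intervals for shares of cells, and both cover counting error only. With 1 library per stage there was no replicate check and no test was made between classes of cells. The subclusters were made from these same counts, so every ratio of ENC 2 to the others describes the subcluster.

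SOX10 was present in ENC 2 at the level of its neighbours. It stood at 127 CPM in ENC 2 (119 to 135), 126 CPM in ENC 1, 128 CPM in ENC 3 and 104 CPM in ENC 4, against 12.6 CPM in neuro-epithelial progenitors (NEP), 29.9 CPM in cranial placode (CP) cells and 4.87 CPM in non-neural ectoderm (NNE). After each cell was thinned to 3000 UMIs, 33.8% of ENC 2 cells held a SOX10 UMI, compared with 2.89% of NEP cells and 1.70% of NNE cells, and unthinned cells of these types had 6550, 7227 and 7349 UMIs at the median. The authors named the type from these same counts with SOX10 and FOXD3 as markers. These values therefore describe the label and do not test it. TFAP2B stood at 430 CPM in ENC 2 and 438 CPM in ENC 1, ERBB3 at 74.7 and 75.1 CPM, and NGFR at 101 and 108 CPM. Not every crest marker set ENC 2 apart from the other types. In thinned cells PAX3 was in 16.1% of ENC 2 and 21.2% of NEP cells. TFAP2A was in 11.0% of ENC 2 and 67.2% of NNE cells, and TFAP2B in 70.0% of ENC 2 and 73.4% of CP cells. Several markers of other types were low, but not all differed. WNT2B, a NEP marker, was at 12.3 CPM in ENC 2 and 827 CPM in NEP. SOX2, also a NEP marker, was in 5.67% of thinned ENC 2 cells and 5.28% of thinned NEP cells. NEUROD1, a transcription factor of sensory neuroblasts, was at 0.123 CPM in ENC 2 and 164 CPM in CP, and EPCAM, an epithelial adhesion molecule, was at 2.71 CPM against 248 CPM in NNE. TWIST1 and PRRX1, mesenchymal transcription factors, had no UMI in ENC 2, where 3 UMIs would be 0.370 CPM. They also had none in thinned cells of ENC 1, ENC 3, ENC 4, NEP, CP or NNE, so they do not set ENC 2 apart. Other genes of the mesenchymal list were abundant, with VIM at 878 CPM in ENC 2 and 914 CPM in the other 3 subclusters together. COL1A2 stood at 427 and 440 CPM.

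ENC 2 stood apart by genes that were higher in it, with almost none lower. A gene was called when ENC 2 and the other 3 subclusters together differed by 1.5-fold or more on log2(CPM + 1), among 6661 genes at 10 CPM or more in either. Of these, 195 genes were higher (2.93% of genes tested) and 1 gene was lower (0.015%). The count of lower genes depended on the setting, with 69 when the other subclusters were given equal weight and 80 in G1 cells alone. The median log2 ratio over all genes tested was -0.0029, and 88 genes were at least 2-fold higher. All 195 were above each of ENC 1, ENC 3 and ENC 4 taken singly, 134 of them by 1.5-fold or more over each. The 195 genes together made up 1.24% of the UMIs of ENC 2 and 0.555% of those of the others, or 88.7 and 41.7 UMIs per cell. The plot of ratio against level shows the higher genes as a cloud above a dense band of genes that lay within 1.5-fold.

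**Figure D1:**
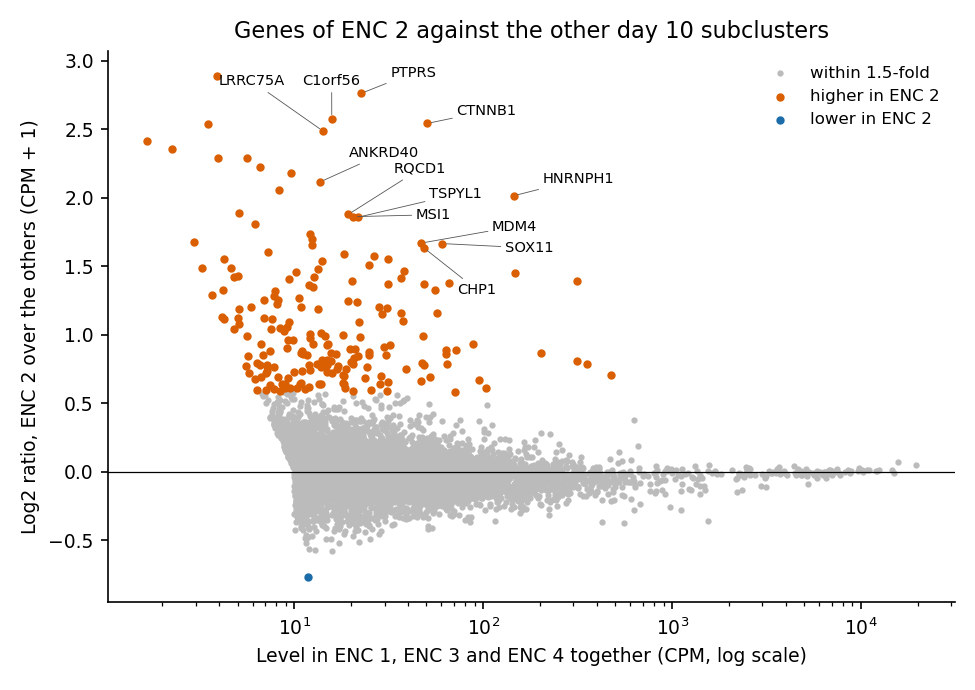
Log2 ratio of ENC 2 over ENC 1, ENC 3 and ENC 4 together (on CPM + 1) against the level in those 3 subclusters (CPM, log scale), with 1 point for each of 6661 genes. The 195 genes higher in ENC 2 are orange with the 12 leading genes named, and the single lower gene, EXT2, is blue.

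Taken against 1 subcluster at a time, ENC 2 was nearest to ENC 1. Against ENC 1, 194 of 6668 genes were higher (2.91%) and 2 were lower (0.03%). Against ENC 3, 674 of 6801 genes were higher (9.91%) and 318 lower (4.68%), and against ENC 4 658 of 6969 were higher (9.44%) and 439 lower (6.3%). ENC 3 and ENC 4 held fewer cells, so their levels carried wider counting error.

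The 12 leading genes were the ones with the highest ratio among 1908 genes with at least 50 CPM and UMIs in at least 10% of cells. PTPRS led them. It encodes a receptor-type protein tyrosine phosphatase of the nervous system and lies on chromosome 19 from 5158495 to 5340803, minus strand (GRCh38, GENCODE v29). It stood at 159 CPM in ENC 2 (150 to 168), 22.2 CPM in ENC 1 (20.3 to 24.2), 20.5 CPM in ENC 3 and 31.9 CPM in ENC 4, and 63.3% of ENC 2 cells held a UMI of it against 14.7% of the others. The interval of ENC 2 lay above the intervals of the other 3.

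CTNNB1 encodes β-catenin, the joint component of adherens junctions and of canonical WNT signalling (chromosome 3, 41194741 to 41260096, plus strand). Its level was 299 CPM in ENC 2 (288 to 311), 49.2 CPM in ENC 1 (46.4 to 52.2), 56.5 CPM in ENC 3 and 62.3 CPM in ENC 4. HNRNPH1, a splicing regulator that binds G-rich RNA (chromosome 5, 179614178 to 179634784, minus strand), was the most abundant of the 12. It stood at 588 CPM in ENC 2, 141 CPM in ENC 1, 168 CPM in ENC 3 and 170 CPM in ENC 4, and was seen in 96.6% of ENC 2 cells and 61.4% of the others. With each cell thinned to 3000 UMIs, 82.3% of ENC 2 cells held a UMI of it, against 34.5% in ENC 1, 38.5% in ENC 3 and 38.0% in ENC 4.

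C1orf56 stood at 99.03 CPM in ENC 2 and 15.9 CPM in ENC 1 (chromosome 1, 151047740 to 151051986, plus strand). Its 3′ part overlaps CDC42SE1, a gene of the opposite strand, over 1016 bases, and CDC42SE1 was itself among the 195, at 94.0 CPM in ENC 2 and 31.3 CPM in the others. The counting is not stated to use strand in the sources used here, so reads of the pair may not be told apart. The same limit holds for CTNNB1 with ULK4 (13498 shared bases), LRRC75A with LRRC75A-AS1 (37102), TSPYL1 with DSE (3326) and ANKRD40 with an antisense gene (2002). LRRC75A, a leucine-rich repeat gene, stood at 84.1 and 14.5 CPM in ENC 2 and ENC 1, and ANKRD40, an ankyrin repeat gene, at 62.5 and 13.1 CPM.

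The other leading genes were lower in ratio and highest in ENC 2, with no shared order among the other 3 subclusters. RQCD1, now named CNOT9, a subunit of the CCR4-NOT complex that shortens poly(A) tails, stood at 73.5 CPM in ENC 2 and 19.7 CPM in ENC 1. MSI1, an RNA-binding regulator of translation in neural progenitors, stood at 77.2 and 20.0 CPM. TSPYL1, of the nucleosome assembly protein family, stood at 81.6 CPM in ENC 2, 19.9 CPM in ENC 1 and 36.1 CPM in ENC 3. MDM4, an inhibitor of p53, was at 151 and 48.0 CPM in ENC 2 and ENC 1, and CHP1, a calcium-binding cofactor of sodium-proton exchangers, at 153 and 47.9 CPM. SOX11, a SoxC transcription factor of neural progenitors, was at 195 CPM in ENC 2, 61.2 CPM in ENC 1, 46.3 CPM in ENC 3 and 76.7 CPM in ENC 4. SOX4, a second SoxC gene that was picked out after its values were seen, stood at 551 CPM in ENC 2 and 315 CPM in the others. Log2 ratios of the 12 genes over the other 3 subclusters together ran from 1.63 for CHP1 to 2.76 for PTPRS.

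**Figure D2:**
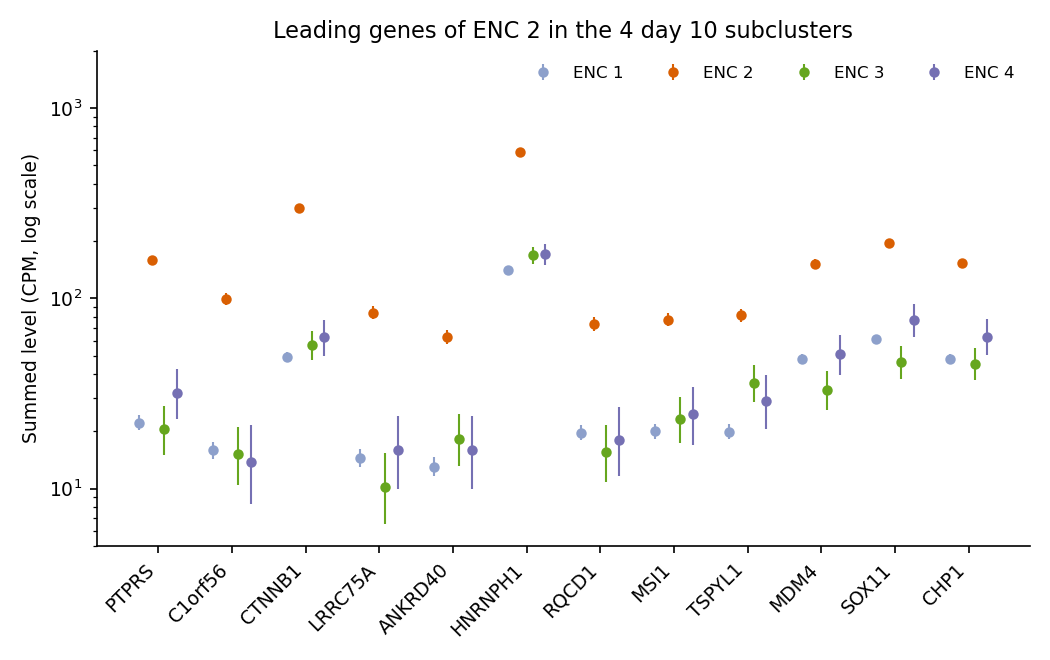
Summed level (CPM, log scale) of the 12 leading genes in the 4 day 10 subclusters, with exact 95% Poisson intervals as bars. ENC 2 (orange) lies above ENC 1, ENC 3 and ENC 4 for each gene, from 62.5 CPM for ANKRD40 to 588 CPM for HNRNPH1.

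Among less abundant genes PHKG1 alone had a ratio above that of PTPRS. PHKG1, a catalytic subunit of phosphorylase kinase (chromosome 7, 56080283 to 56092996, minus strand), stood at 35.1 CPM in ENC 2 (31.2 to 39.5), 3.96 CPM in ENC 1, 3.12 CPM in ENC 3 and 3.62 CPM in ENC 4, a log2 ratio of 2.89 over the others. XYLT2, a xylosyltransferase that starts glycosaminoglycan chains, was at 25.2 CPM in ENC 2 against 3.50 CPM in the others, and B4GALT1, a Golgi galactosyltransferase, at 31.4 against 5.64 CPM. INSR, the insulin receptor, was at 23.2 CPM in ENC 2, 4.44 CPM in ENC 1, 0.890 CPM in ENC 3 and 0.724 CPM in ENC 4, where the last 2 values are under the 3 UMIs taken as the floor. The remaining 4 of the 8 highest genes between 5 and 50 CPM were LYSMD1 at 13.2 against 1.65 CPM, PAQR7 at 15.7 against 2.26 CPM, the long non-coding RP11-294J22.6 at 34.3 against 6.54 CPM and R3HDM2 at 47.2 against 9.63 CPM. The genes whose smallest ratio over any single subcluster was highest were PHKG1, C1orf56, LRRC75A, PTPRS, CTNNB1, B4GALT1, INSR and R3HDM2.

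Genes lower in ENC 2 differed little. EXT2, a heparan sulphate polymerase, was the single called gene, at 6.54 CPM in ENC 2 (4.90 to 8.55) and 11.8 CPM in the others. Among abundant genes the lowest log2 ratios were -0.42 for GSN, an actin-severing protein, at 37.7 against 50.7 CPM, and -0.41 for TIMM50, a mitochondrial import subunit, at 40.0 against 53.5 CPM. Glycolytic enzymes were also in this list of 12. ENO1 stood at 1209 CPM in ENC 2 (1185 to 1233) and 1533 CPM in ENC 1 (1517 to 1549), and PGK1 at 330 and 415 CPM. Their log2 ratios over the others, -0.36 and -0.37, moved with phase and depth. They were -0.13 and -0.14 in G1 cells, -0.40 and -0.37 in S cells and -0.49 and -0.53 in G2/M cells. Among cells of 5000 to 8000 UMIs they were -0.26 and -0.23. CRABP1, a retinoic acid carrier, stood at 65.98 CPM in ENC 2, 63.1 CPM in ENC 1 and 512 CPM in ENC 4, so its low ratio came from ENC 4. NEFM, a neurofilament under the 10 CPM limit, likewise stood at 2.71 CPM in ENC 2 and 84.7 CPM in ENC 4.

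Of 31 gene lists, the summed level was higher in ENC 2 for 7 and lower for 9, counted where the Poisson intervals of ENC 2 and the other 3 subclusters together did not overlap. Most of these differences were small. The WNT list stood at 559 CPM in ENC 2 (543 to 576) and 297 CPM in the others (290 to 304). Of its 8 members tested 1 was called higher, beside 2.93% of all genes tested. That member was CTNNB1. Without it the list stood at 260 CPM in ENC 2 (249 to 271) and 246 CPM in the others (241 to 252), and these intervals overlapped. AXIN2, a feedback target of WNT signalling, was at 12.5 CPM in ENC 2 with a log2 ratio of 0.30. The WNT receptor FZD3 was at 81.5 against 77.0 CPM and the transcription factor TCF7L2 at 39.3 against 38.4 CPM. Of the 8 tested members 7 lay above 0, and SFRP2 was lower, at 11.0 against 13.4 CPM. NKD1, under the 10 CPM limit, was at 7.52 against 8.80 CPM. No tested member of the list other than CTNNB1 passed 1.5-fold. Whether WNT signalling differed was not tested.

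Crest and early glial lists held few calls or none, beside 2.93% of all genes tested called higher and 0.015% lower. A list with few members tested can hold none at that share. In the neural crest list 1 of 12 members tested was called, CDH6, a cadherin of migrating crest, at 81.9 CPM in ENC 2, 38.7 CPM in ENC 1, 36.5 CPM in ENC 3 and 21.7 CPM in ENC 4. The median log2 ratio of the list was 0.05, beside -0.0029 over all genes tested. None of 4 tested enteric progenitor genes was called, with EDNRB at 36.9 against 38.4 CPM. None of 7 tested Schwann precursor genes was called. The sums of the Schwann precursor list (1795 against 1850 CPM), the retinoic acid list (2325 against 2446 CPM) and the collagen list (1192 against 1231 CPM) were slightly lower in ENC 2. None of 11 retinoic acid genes, 6 BMP and ID genes, 7 Notch genes or 17 collagen and matrix genes tested was called.

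The insulin-like growth factor list held 2 called genes of 10 tested, beside 2.93% of all genes tested called higher. They were INSR and IGF2, the latter at 18.0 CPM in ENC 2 and 9.18 CPM in the others. Without them the list stood at 400 CPM in ENC 2 (386 to 414) and 381 CPM in the others (374 to 389). In the glycolysis and hypoxia list none of 19 genes passed 1.5-fold and 3 of 19 lay above 0, with a summed level of 11748 CPM in ENC 2 and 13185 CPM in the others. The sensory neuroblast list stood at 81.4 CPM in ENC 2 and 96.5 CPM in the others together, but at 76.6 CPM in ENC 1, 69.4 CPM in ENC 3 and 471 CPM in ENC 4, so its lower sum came from ENC 4. HES6 in it stood at 55.4 CPM in ENC 2, 55.6 CPM in ENC 1 and 253 CPM in ENC 4. No stress list held a called gene, and lists this short can hold none when 2.93% of all genes tested are called higher. Whether stress differed was not tested. None of 8 heat shock and immediate early genes, 12 ATF4 and unfolded protein genes or 8 p53 and apoptosis genes tested passed 1.5-fold, and MDM2, a p53 target, stood at 20.3 against 14.7 CPM. The mitochondrially encoded transcripts summed to 35009 CPM in ENC 2 and 34763 CPM in the others, a direction that turned with TMM scaling (log2 ratio -0.020). Nuclear-retained long RNAs summed to 16840 CPM in ENC 2, 16581 CPM in ENC 1, 8495 CPM in ENC 3 and 17112 CPM in ENC 4, and most of each sum was MALAT1.

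ENC 2 held more cells called G2/M than ENC 1. By the deposited phase calls the G2/M share was 34.99% in ENC 2 (32.2 to 37.8) and 27.5% in ENC 1 (25.9 to 29.2), the S share 34.4% and 34.8%, and the G1 share 30.6% (28.0 to 33.4) and 37.7% (35.9 to 39.4). Among cells of 5000 UMIs or more the G2/M shares were 33.5% (30.3 to 36.8) and 28.0% (26.4 to 29.7), while the intervals of the G1 shares overlapped, at 33.3% (30.1 to 36.5) and 35.8% (34.1 to 37.6). ENC 3 held 49.4% in G1 and 41.95% in G2/M, and ENC 4 56.7% and 18.2%. The levels of the cycle genes themselves were close. None of 28 G2 and mitosis genes was called, beside 2.93% called higher among all genes tested. Of the 28, 18 had a log2 ratio above 0. MKI67 stood at 162 against 138 CPM and TOP2A at 270 against 244 CPM. In the other direction, CCNB1 stood at 92.7 against 109 CPM and CDC20 at 65.2 against 72.3 CPM. The sum of this list was slightly higher in ENC 2, at 4408 CPM (4362 to 4454) against 4281 CPM (4256 to 4306). The histone list was also higher, at 2007 CPM (1977 to 2038) against 1872 CPM (1855 to 1888). In the S phase list HELLS, a chromatin remodeller, was the single called gene of 21, at 152 against 95.2 CPM. The 12 leading genes were picked by their ratio in these same cells, so ratios above 0 within each phase were largely set by that choice. Log2 ratios of the 12 genes ran from 1.64 to 2.73 within G1 cells, from 1.52 to 2.98 within S cells and from 1.53 to 2.59 within G2/M cells.

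Depth moved with membership. At the median an ENC 2 cell had 6550 UMIs from 1832 genes and an ENC 1 cell 7229 UMIs from 1940 genes, while the mitochondrial share was 3.50% against 3.48% and the ribosomal protein share 45.1% in both. The share of ENC 2 was 56.6% of the 475 subclustered cells under 5000 UMIs (52.0 to 61.1), 21.3% from 5000 to 6500 UMIs, 18.3% from 6500 to 8000, 18.0% from 8000 to 10000 and 27.7% of the 592 cells above (24.1 to 31.5). ENC 2 was therefore most frequent at both ends of the depth range. Cells of 5000 to 8000 UMIs were part of those in which the 12 genes were picked. Among these cells, 257 genes were higher, 181 of which were among the 195. The 12 leading genes had log2 ratios of 1.73 to 2.98 there. The part of depth in the subcluster beyond this was not tested.

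**Figure D3:**
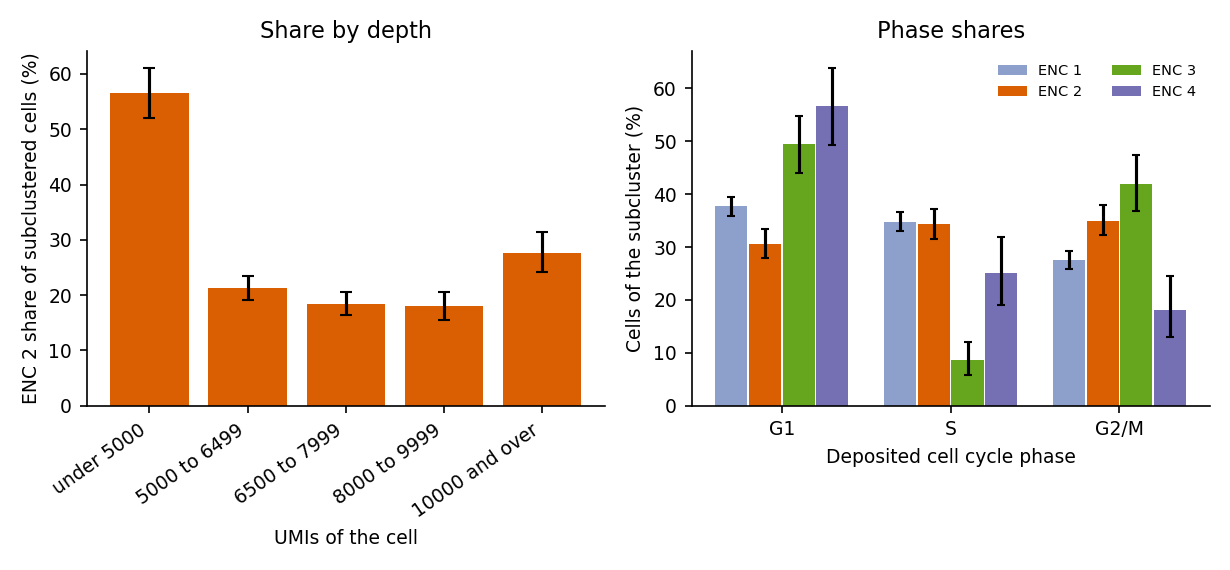
Left, share of ENC 2 among subclustered cells (%) by the UMIs of the cell, from 56.6% under 5000 UMIs to 18.0% at 8000 to 10000. Right, share of cells (%) of each subcluster in the deposited G1, S and G2/M phases, with 34.99% of ENC 2 in G2/M, and bars in both panels are exact 95% Clopper-Pearson intervals.

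The leading genes were next followed in cells outside the 4 subclusters. For each cell, unthinned, the CPM of the 12 genes were added. The median sum was 2063 CPM in ENC 2, 407 CPM in both ENC 1 and ENC 3, and 458 CPM in ENC 4, and the 5th percentile of ENC 2 (743 CPM) lay below the 95th percentile of ENC 1 (1189 CPM). In NEP cells the median was 648 CPM with a 95th percentile of 3371 CPM, in CP cells 723 and 3554 CPM, and in NNE cells 639 and 2867 CPM. The share of cells above the 95th percentile of ENC 1 was 87.6% in ENC 2, 31.1% in NEP, 34.9% in CP and 36.0% in NNE, compared with 6.32% in ENC 3 and 11.2% in ENC 4. Cells with ENC 2 levels of these genes were thus present in each of the other day 10 types. Of the 256 crest cells with no subcluster, 48.8% lay above the same line.

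At day 15 the sum of the 12 genes was similar in the crest subclusters. The summed level was 1130 CPM in ENC 1′, 1288 CPM in ENC 2′, 1107 CPM in ENC 3′ and 1061 CPM in ENC 4′, a ratio of 1.21 between highest and lowest, where at day 10 ENC 2 stood at 2023 CPM and the other 3 together at 479 CPM. CTNNB1 ranged from 150 CPM in ENC 4′ to 270 CPM in ENC 2′, HNRNPH1 from 241 CPM in ENC 3′ to 304 CPM in ENC 2′ and PTPRS from 55.9 CPM in ENC 3′ to 69.9 CPM in ENC 2′. ANKRD40 differed more, from 7.92 CPM in ENC 4′ (4.09 to 13.8) to 30.0 CPM in ENC 2′ (28.0 to 32.1). In each of the 4, between 38.4% and 45.6% of cells lay above the 95th percentile of day 10 ENC 1. Day, culture format, medium, depth and library differ together between the stages and cannot be told apart. SOX11 made up a large part of the sum in placode cells of day 15, at 899 CPM in CP1 and 1212 CPM in CP2.

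**Figure D4:**
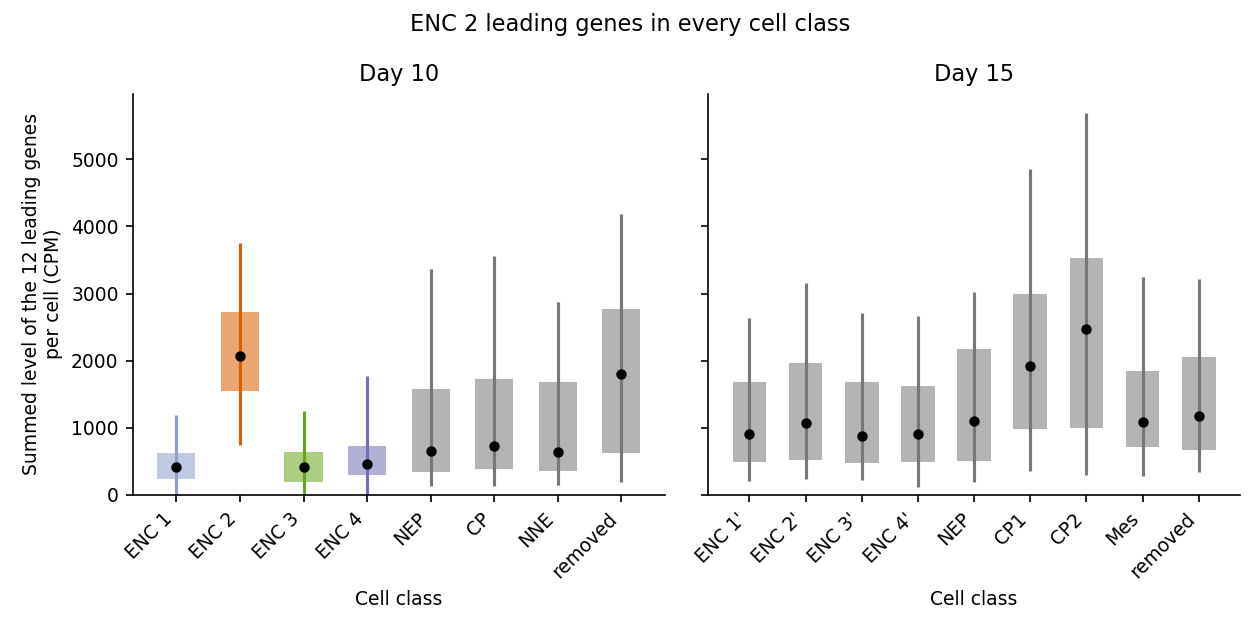
Summed level per cell (CPM) of the 12 leading genes in each class of the day 10 and day 15 libraries, where dots are medians, boxes the middle 50% of cells and lines the 5th to 95th percentiles. ENC 2 has a median of 2063 CPM against 407 CPM in ENC 1, the other day 10 types reach the range of ENC 2 in their upper part, and the 4 day 15 crest subclusters have medians of 880 to 1069 CPM.

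The same genes were also compared across the cells within other classes, and whether they had a part in dividing those classes was not tested. Across 1798 NEP cells thinned to 3000 UMIs, all from 1 library, the median Pearson r over the 66 pairs of the 12 genes was 0.128 and all 66 were above 0, while the 99th percentile over all pairs of 1908 abundant genes was 0.072. In ENC 2′ at day 15 the median was 0.081 against a 99th percentile of 0.060, whereas in ENC 1′, ENC 3′ and ENC 4′ the medians of 0.065, 0.067 and 0.036 lay under 99th percentiles of 0.075, 0.106 and 0.229. In NEP and CP1 of day 15 the medians of 0.083 and 0.110 likewise lay under 0.255 and 0.183. In CP and NNE of day 10, with fewer cells, the medians of 0.127 and 0.136 lay under the 99th percentiles of 0.147 and 0.169. Within the day 10 subclusters the medians were 0.035 in ENC 2, 0.033 in ENC 1, 0.016 in ENC 3 and 0.018 in ENC 4. The 99th percentiles there were 0.079, 0.054, 0.131 and 0.185, each above its median. Within ENC 2, 54 of the 66 pairs were above 0. The other 183 higher genes tended to follow the 12, to a degree that differed by class. Their correlation with the summed 12 genes was above 0 for 179 of 183 in NEP, where 49.2% of the remaining tested genes had a correlation above 0. It was above 0 for 176 of 183 in ENC 2′, where the figure was 54.5%, and for 162 of 183 within ENC 2, where it was 53.2%. Lower counts were seen in ENC 4′, with 139 of 178 beside 56.2%, and in ENC 3, with 119 of 181 beside 50.2%. Within NEP the sum had a Spearman correlation of -0.29 with the UMIs of the cell before thinning and -0.06 with its mitochondrial share. These values are descriptions of cells that share a library, and counts per gene were sparse.

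The higher genes had longer annotated 3′ ends at the median, though not all did. Of the 195, 185 matched a protein-coding transcript of GENCODE v29, as did 6312 of the 6661 genes tested. The 3′ untranslated region of the longest transcript had a median of 2628 bases in the higher genes and 1288 bases in the genes that were not higher, the whole transcript 4946 and 3178 bases, and the coding part 1449 and 1212 bases. The 5′ untranslated region did not follow, with 211 and 218 bases. Divided into 4 equal groups by 3′ length, 0.317% of the genes with the shortest regions were higher in ENC 2, then 1.39%, 4.44% and 5.58% of those with the longest. From shortest to longest the groups held 5, 22, 70 and 88 higher genes. Higher genes were also less abundant, with a median of 13.9 CPM in the other subclusters against 28.1 CPM, and a low level can pass a fold limit by counting error. The order of these groups held at 50 CPM and over, where the shares were 0.158%, 0.837%, 1.77% and 2.72%. Those shares rest on few genes, namely 1 of 633, 4 of 478, 7 of 395 and 9 of 331. Among the leading genes the annotated 3′ regions ran from 409 bases in PTPRS and 549 in CTNNB1 to 7341 in SOX11 and 8441 in MDM4.

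**Figure D5:**
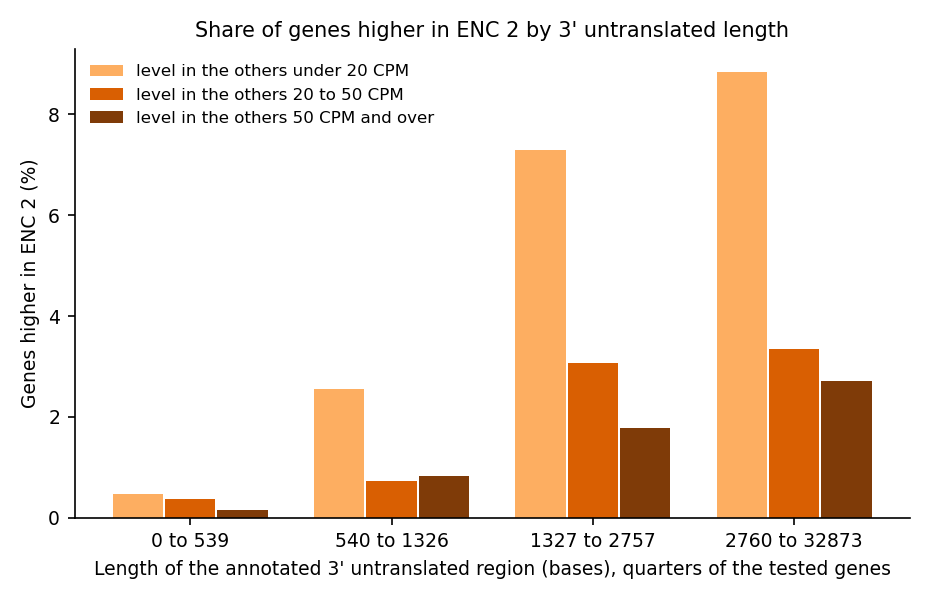
Share of tested genes (%) that were 1.5-fold or more higher in ENC 2, by 4 equal groups of annotated 3′ untranslated length (bases) and by level in the other subclusters. The share rises from the shortest to the longest group at each level. At 50 CPM and over it goes from 0.158% (1 of 633 genes) to 2.72% (9 of 331 genes).

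Promoters were searched on both strands for 6 short motifs. They were the CCAAT box, the GC box with the letters GGGCGG, the TATA box with TATAAA, the E-box with CACGTG, the ETS core with CGGAAG and the cyclic AMP response element with TGACGTCA. The 250 bases before the RefSeq start of PTPRS and of HNRNPH1 are shown as examples, with matches in capitals. They were the leading genes in the table whose window held no annotated untranslated base, and lie at chr19:5340813-5341062 and chr5:179634785-179635034, both on the minus strand of GRCh38.p14.
PTPRS: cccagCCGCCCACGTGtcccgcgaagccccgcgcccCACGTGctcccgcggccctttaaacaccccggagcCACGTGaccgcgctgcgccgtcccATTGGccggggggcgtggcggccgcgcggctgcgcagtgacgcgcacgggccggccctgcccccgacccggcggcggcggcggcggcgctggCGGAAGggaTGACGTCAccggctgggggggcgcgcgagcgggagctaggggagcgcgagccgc
HNRNPH1: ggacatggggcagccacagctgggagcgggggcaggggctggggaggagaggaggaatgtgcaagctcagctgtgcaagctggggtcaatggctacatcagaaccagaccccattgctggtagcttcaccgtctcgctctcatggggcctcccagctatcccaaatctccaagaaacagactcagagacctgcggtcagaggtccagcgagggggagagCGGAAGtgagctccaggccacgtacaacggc
The PTPRS sequence held 3 E-boxes, the first overlapping a GC box, and 1 each of the CCAAT box, the ETS core and the cyclic AMP response element. The HNRNPH1 sequence held 1 ETS core and no other of the 6. Their GC content was 80.8% and 61.6%.

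Of 150 higher genes with a promoter in the table, 68.7% held a GC box, against 67.9% of 5279 tested genes and 42.3% of all 27305 promoters. The CCAAT box was in 54 of the 150, in 37.3% of tested genes and in 33.0% of all, the ETS core in 30.7%, 33.8% and 16.8%, and the E-box in 10.7%, 9.55% and 6.49%. The cyclic AMP response element was in 9 of the 150, or 6.0%, against 3.66% of tested genes and 1.77% of all, and the TATA box in 4 of the 150, or 2.67%, against 4.58% and 11.1%.

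The 4665 cells were clustered again from the same counts with the study's steps, 17 principal components and resolution 0.2. Agreement with the deposited subcluster was therefore likely in advance and is no independent support for it. Of the 1129 ENC 2 cells, 93.0% fell in 1 of 4 clusters, and 97.8% of that cluster was ENC 2. The first component separated ENC 2 from the rest, and its highest loadings were on HNRNPH1, CTNNB1, SET, PTPRS, CDC42 and C1orf56. Without regression of the cell cycle scores, 44.4% of ENC 2 fell in 1 cluster and 28.2% of that cluster was ENC 2. A doublet caller marked 1 of the 9627 cells and was treated as not having worked. Of the 6% of cells with the highest doublet scores, ENC 2 held 69, or 6.11% of its members, against 2.77% of ENC 1. Without these cells 201 genes were higher, 192 of them among the 195.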

How the data were processed

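Single-cell libraries were made by the authors with the Chromium 3′ kit v3.1 from H9 cultures at day 10 and day 15 (1 library each, 2 pooled repeats). The labels call them single-nucleus libraries, whereas the study's methods describe dissociated whole cells. Matrices were extracted with kallisto and bustools per the methods, while the submitters' processing notes name Cell Ranger, Seurat 4.0.4 and GRCh38; the annotation is not given in the sources used here. The authors deposited raw UMI counts per gene and cell, without normalization. The authors also deposited the mitochondrial and ribosomal percent of UMIs, a phase, a cell type and a subtype. Their day 10 filters kept cells of 1250 to 3500 genes, at most 20000 UMIs and at most 5% mitochondrial UMIs, and subclusters came from Louvain clustering with depth, cell cycle and the percent of mitochondrial and ribosomal UMIs regressed out. A fraction deposited by the authors, the log of genes over the log of UMIs per cell, was not used.

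Counts of the 33694 genes were summed per class and divided by their total to give CPM, and ratios were taken on log2(CPM + 1), which understates changes of low genes. The ENC 2 total was 8109026 UMIs. Genes were called at 1.5-fold among those at 10 CPM or more. Named genes were the 12 highest and 12 lowest ratios at 50 CPM or more with UMIs in 10% of cells, the 8 highest and 8 lowest between 5 and 50 CPM, the 8 with the highest smallest ratio over single subclusters at 20 CPM or more, the 3 most abundant and any called members of each list, and cell type markers. Mitochondrial and ribosomal protein genes were left out of the first 3 groups. AXIN2, SFRP2, NKD1, MKI67, TOP2A, CCNB1, CDC20, MDM2, SOX4 and CDC42SE1 were named after their values were seen. Members and lists were chosen with earlier results of these data known. Cells were thinned to 3000 UMIs without replacement. Reclustering used Seurat 5.3.0 with 2000 variable genes, TMM factors came from edgeR 4.0.16, doublet scores from Scrublet in scanpy 1.11.5, and sums from Python 3.11.15. Gene positions and lengths came from GENCODE v29, and promoters and newer symbols from RefSeq on GRCh38.p14 (first entry per gene). Alternatives were other scalings, limits, pseudocounts, phases, depths, doublet scores and clustering settings. Results for a few list members are not reported here.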

Additional observations from a re-analysis of the deposited data

Results flagged for a closer look

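The 2332 day 10 cells that the authors' filters removed carry no cell type and enter no comparison above. The median summed level of the 12 leading genes in them was 1797 CPM, near the 2063 CPM of ENC 2 and above the 569 CPM of the 7295 kept cells. It was 2384 CPM in the 1242 removed cells under the authors' minimum of genes and 825 CPM in the 834 others removed with over 5% mitochondrial UMIs. Across the 1766 removed cells of 3000 UMIs or more, thinned to that depth, the sum had a Spearman correlation of -0.52 with the UMIs of the cell before thinning. All 66 pairs of the 12 genes had a correlation above 0 there. At day 15 the median was 1172 CPM in removed and 1009 CPM in kept cells. Why these cells resembled ENC 2 in the 12 genes was not tested.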

How the results depend on the processing

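The log2 ratios of the 12 highest and 12 lowest abundant genes kept their direction in each of 264 alternative values, 55 of which moved beyond their counting error. These genes were picked by their ratio in the same cells, so a kept direction was likely in advance. The higher calls numbered between 155 and 280 under 11 of the 13 alternatives to scaling, limits and cells. They were 53 at 50 CPM and 88 at 2-fold, by construction. The lower calls were few and unstable: 4 with TMM scaling, 5 with the mean of each cell's CPM, 69 with equal weight of the other subclusters, 0 at 50 CPM, at 2-fold and with a pseudocount of 5 CPM, 49 after thinning, 80 in G1 cells, 12 without mitochondrial and ribosomal protein UMIs in the totals and 3 without high doublet scores. Alternatives added after seeing the data gave 27 lower genes in cells of 5000 to 8000 UMIs, 47 in S cells and 64 in G2/M cells. The share of ENC 2, 24.2% of subclustered cells, was 22.9% of all crest cells, 20.5% at 5000 UMIs or more and 19.7% in G1. With TMM scaling 4 lists were higher and 12 lower, and in G1 cells 4 were lower. List ratios that turned were the mesenchymal list (log2 0.021) and the MHC class I list (0.00495) in G1 cells and the mitochondrially encoded list (-0.020) with TMM scaling. The share of ENC 2 in its best rebuilt cluster was 96.5% at resolution 0.5, 97.2% with 10 components, 95.2% with 25, 44.4% without cell cycle regression and 100% at resolution 0.1, which gave 1 cluster. At day 15 the ratio of highest to lowest subcluster was 1.32 for the 8 genes chosen over single subclusters. The cause of these movements was not tested.

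No paired analysis was possible because each stage was 1 library and the 2 pooled repeats were not separated. For the same reason no replicate could be left out, and differences among subclusters carry counting error only. ENC 3 and ENC 4, with 2246788 and 1381351 UMIs, limit single-subcluster comparisons, since 3 UMIs equal 1.34 and 2.17 CPM there.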
